A study of Homo sapiens with 6 samples.

Results

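The semaphorin, plexin and neuropilin genes were described in RNA-seq of cells labelled PLC/PRF/5, a long-established line from a human liver cancer. Members were the rows whose symbol began with SEMA or PLXN, or was NRP1 or NRP2, without antisense and pseudogene symbols. The rule found 31 of 24432 gene symbols, made up of 20 semaphorins, 9 plexins and 2 neuropilins, and left out 5 antisense rows. The 3 resistant libraries came from cells grown in rising doses of lenvatinib, a kinase inhibitor of VEGF and FGF receptors, and are labelled Lenvatinib resistant with the treatment Lenvatinib. The 3 sensitive libraries carry the same line's name, the genotype WT and the treatment control. Both groups were grown in serum-containing DMEM. As written, dosing began at 20 µmol/L, went up by 0.5 mmol/L and ended at 40 mmol/L, so the unit given for the first dose differs from that of the later ones. The labels do not say whether the resistant cells were a clone or whether the libraries were separate cultures, so p-values measure the spread between these libraries, which may be technical.

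Semaphorins are secreted or membrane-bound guidance proteins that share a sema domain. They act mainly through plexins, transmembrane receptors whose cytoplasmic part inactivates small GTPases of the R-Ras and Rap families and so loosens adhesion and reshapes actin. Most secreted class 3 semaphorins bind a neuropilin, which lends affinity, while the plexin carries the signal; neuropilins also bind VEGF. In tumours the family is known for effects on cell migration, vessel growth and immune cells, and single members are described as promoting or restraining growth depending on the tissue.

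The libraries separated by group. Resistant libraries correlated with sensitive ones at 0.680 to 0.706 (Pearson's r on log2(FPKM + 1) over the tested genes, which are not independent replicates). Within the resistant group r was 0.994 to 0.996; in the sensitive group replicates 1 and 2 stood at 0.995, and replicate 3 stood apart from them at 0.952 and 0.964. FPKM, a fragment count scaled by transcript length and library size, allows levels of different genes to be compared per length. The labelled cell type was clear in the sensitive libraries only: 17 of 18 hepatocyte markers were tested and all 17 were lower in resistant cells, with a summed level of 22.8 to 54.3 FPKM in resistant and 5312 to 5517 FPKM in sensitive libraries. Albumin (ALB) was at 0, 0.0222 and 0 FPKM in resistant and at 4.02, 3.61 and 2.01 FPKM in sensitive replicates 1, 2 and 3. Whether the resistant libraries come from the labelled line could not be settled from these values, so a difference in line and one in resistance cannot be told apart. Lenvatinib exposure, resistance and the lower hepatocyte transcripts lie in the same 3 libraries and cannot be told apart, also for every result that follows. Since these are bulk libraries, fewer cells with a transcript and less of it per cell cannot be told apart either.

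Markers of other cell types that produce semaphorins were mostly near 0. Of 8 endothelial markers in the files, ERG was at 0 in every library, PECAM1 and CDH5 stayed at or below 0.0208 FPKM in resistant and 0.185 FPKM in sensitive libraries, and only ESAM, a junction protein, was tested and higher, at 200, 185 and 166 FPKM in resistant and 1.64, 1.51 and 0.818 FPKM in sensitive libraries. ROBO4, at 1.78, 1.25 and 0.856 FPKM in resistant and 0, 0 and 0.00601 FPKM in sensitive libraries, and VWF, at 0.237, 0.273 and 0.169 FPKM in resistant and 0, 0.00282 and 0.00292 FPKM in sensitive libraries, were under the filter and higher in every resistant library. ESAM carried most of the endothelial sum of 167 to 202 FPKM in resistant and 1.01 to 1.83 FPKM in sensitive libraries. The 7 fibroblast markers summed to 0.0553 to 0.241 FPKM in resistant and 0.938 to 1.85 FPKM in sensitive libraries, and 3 neural markers to 0.0110 to 0.0196 FPKM in resistant and 0.0629 to 0.191 FPKM in sensitive libraries. What part ESAM, ROBO4, VWF or the other marker genes had in the results was not tested. The leukocyte marker PTPRC was at 0 throughout; the leukocyte sum of 2.93 to 5.77 FPKM in resistant and 250 to 268 FPKM in sensitive libraries came mostly from LYZ and CD68.

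Promoter sequences are shown for the plexin A genes that moved together, for PLXND1, which moved the other way, and for SEMA3C, the semaphorin with the largest rise. Each is the 250 bases before the first listed transcription start in RefSeq (GRCh38.p14), read 5′ to 3′ on the gene's strand, and capitals mark the GC box, GGGCGG on either strand, the site of Sp1-type factors. They lie at chr3:126982865-126983114 (plus strand) for PLXNA1, chr1:208244385-208244634 (minus) for PLXNA2, chrX:154458031-154458280 (plus) for PLXNA3, chr3:129606677-129606926 (minus) for PLXND1 and chr7:80922390-80922639 (minus) for SEMA3C.
PLXNA1: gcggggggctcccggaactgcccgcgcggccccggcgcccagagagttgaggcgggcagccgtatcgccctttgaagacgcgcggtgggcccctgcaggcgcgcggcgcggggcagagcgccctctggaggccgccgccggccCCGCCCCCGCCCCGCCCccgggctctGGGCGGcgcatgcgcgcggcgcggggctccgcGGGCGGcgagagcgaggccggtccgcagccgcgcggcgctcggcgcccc
PLXNA2: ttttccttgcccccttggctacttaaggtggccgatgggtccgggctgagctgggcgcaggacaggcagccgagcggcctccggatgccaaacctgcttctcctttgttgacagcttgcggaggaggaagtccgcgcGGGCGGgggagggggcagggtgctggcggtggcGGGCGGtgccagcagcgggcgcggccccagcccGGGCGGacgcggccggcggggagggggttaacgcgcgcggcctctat
PLXNA3: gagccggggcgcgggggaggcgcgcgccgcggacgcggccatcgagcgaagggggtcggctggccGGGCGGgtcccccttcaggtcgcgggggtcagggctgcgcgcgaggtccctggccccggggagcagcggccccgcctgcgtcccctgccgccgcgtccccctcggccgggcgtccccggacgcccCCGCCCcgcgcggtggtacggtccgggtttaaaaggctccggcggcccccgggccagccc
PLXND1: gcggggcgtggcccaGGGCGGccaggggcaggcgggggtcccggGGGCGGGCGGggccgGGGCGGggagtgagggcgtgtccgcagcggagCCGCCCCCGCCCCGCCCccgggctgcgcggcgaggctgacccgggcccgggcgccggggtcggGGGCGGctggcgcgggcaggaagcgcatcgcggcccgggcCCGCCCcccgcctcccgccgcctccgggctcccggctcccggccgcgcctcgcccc
SEMA3C: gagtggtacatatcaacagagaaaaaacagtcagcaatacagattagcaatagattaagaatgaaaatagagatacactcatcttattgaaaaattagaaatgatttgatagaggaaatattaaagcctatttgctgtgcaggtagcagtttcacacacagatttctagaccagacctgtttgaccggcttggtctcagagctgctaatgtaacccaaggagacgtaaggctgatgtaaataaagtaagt

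GC content was 84.4% for PLXNA1, 72.4% for PLXNA2 and 82.8% for PLXNA3, against 88.8% for PLXND1 and a median of 58% over 35116 promoter windows. The other plexins that fell had first windows of 59.6% (PLXNB1) and 53.6% GC (PLXNC1), while their other listed starts had 79.2% and 65.2% GC. The median over members was 78% for the 7 that rose and 59.6% for 5 that fell and had a window. Both medians rest on the start listed first. GC boxes, overlapping ones counted separately, numbered 5, 3 and 2 in PLXNA1, PLXNA2 and PLXNA3 and 9 in PLXND1, and 42.6% of all windows held at least 1. The first SEMA3C window held none, 2 CpG dinucleotides and 36.4% GC; its other listed start had 77.6% GC and 39 CpG. Which start the cells used was not measured. Of 27 members with a window, 18 held a GC box in the first one listed. The AP-1 site TGANTCA was in 1 of the 27 first windows (PLXNC1, with no match at its other start) and in 6.57% of all windows. The TEAD site GGAATG was in 2 and in 11.9%, and the E-box CACGTG in 3 and in 6.34%. The TATA box TATAAA was in 0 and in 10.7%.

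Of the 31 members, 19 reached at least 1 FPKM in at least 3 libraries and were tested; 7 rose in resistant cells, 7 fell and 5 did not pass an adjusted p of 0.05 in limma. Calls went in both directions, as they did among all tested genes. SEMA3C, SEMA4B and the plexin A genes PLXNA1, PLXNA2 and PLXNA3 were higher, whereas SEMA4G, SEMA6A, SEMA6B, PLXNB1, PLXNC1 and PLXND1 were lower. The 14 calls are 73.7% of the tested members, against 67.7% called among all 11694 tested genes (35.2% higher and 32.5% lower), so the share of changed members was near the background. Calls of at least 2-fold on the log2(FPKM + 1) scale numbered 11 of 19, against 38.2% of all tested genes. The groups were free of overlap for 17 of 19, against 74.4% of all tested genes. The median log2 fold change of the tested members was -0.32 and the median size 1.54; over all tested genes they were 0.08 and 0.75. Among the 19, 4 were under 1 FPKM in every library of 1 group (SEMA3B, SEMA4D, SEMA6C and PLXNC1) and passed the filter through the other group alone. That fixed both their direction and their lack of overlap, so for these 4 of the 17 it is no result. The share over all tested genes holds such genes too.

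**Figure D1:**
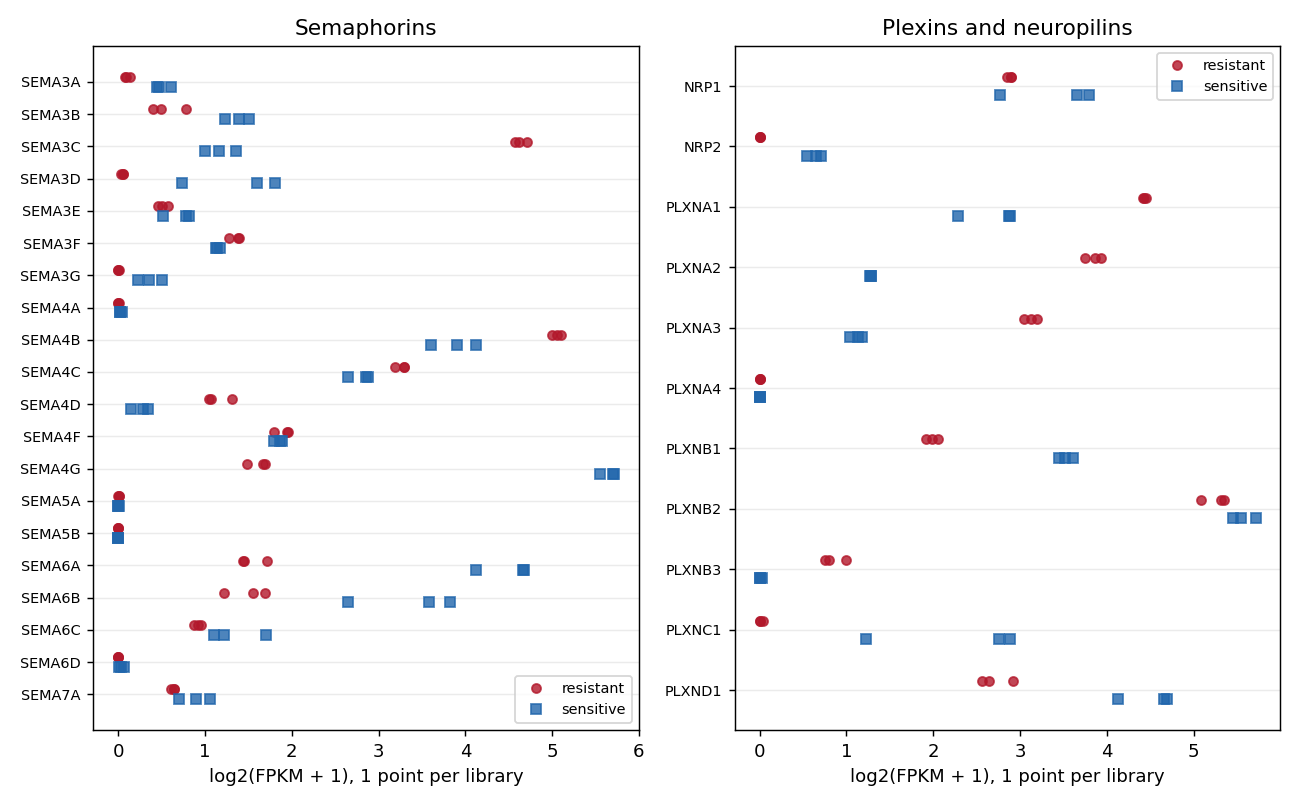
Level of all 31 members on the log2(FPKM + 1) axis, 1 point per library, with resistant libraries (red circles) above sensitive ones (blue squares) in each row. The groups are far apart for SEMA3C, SEMA4G, SEMA6A and PLXNA2, while NRP1 and SEMA4F overlap and SEMA5B is at 0 throughout.

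Among the secreted class 3 semaphorins SEMA3C rose and SEMA3B fell. SEMA3C, a ligand of neuropilins with plexin A and plexin D1 that guides neural crest cells of the heart, was at 22.8, 25.1 and 23.5 FPKM in resistant and at 1.57, 1.24 and 1.00 FPKM in sensitive libraries. All resistant values lay far above all sensitive ones, a ratio of means of 18.7 and a log2 fold change of 3.46 (SE 0.134, limma adjusted p = 1.61e-06). SEMA3B, which with SEMA3F lies in a region often deleted in lung cancer, was at 0.317, 0.403 and 0.724 FPKM in resistant and 1.34, 1.83 and 1.62 FPKM in sensitive libraries, and fell with a log2 fold change of -0.82 (SE 0.132, limma adjusted p = 0.00137). That low level makes the size depend on the pseudocount: with 0.1 in place of 1 it was -1.60, and against a 1.5-fold change the gene did not pass (limma adjusted p = 0.144).

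Other class 3 ligands stayed under 3 FPKM in every library. SEMA3F, which binds NRP2 best, was at 1.60, 1.43 and 1.62 FPKM in resistant and 1.19, 1.26 and 1.20 FPKM in sensitive libraries; the groups did not overlap, yet the log2 difference of 0.20 (95% interval -0.0018 to 0.41) did not pass (limma adjusted p = 0.0725). SEMA3D was under the filter, at 0.0358, 0.0226 and 0.0355 FPKM in resistant and 2.48, 2.03 and 0.664 FPKM in sensitive libraries. SEMA3A, the classic growth cone repellent, had 0.0682, 0.1 and 0.0542 FPKM in resistant and 0.528, 0.386 and 0.358 FPKM in sensitive libraries. For both genes each resistant library lay below each sensitive one. SEMA3D missed the filter by 1 library, and with no filter both were called lower, SEMA3D at -1.33 (limma adjusted p = 0.0114) and SEMA3A at -0.41 (limma adjusted p = 0.00158). SEMA3E, which binds PLXND1 without a neuropilin, overlapped between groups at 0.371 to 0.489 FPKM in resistant and 0.434 to 0.763 FPKM in sensitive libraries. SEMA3G was listed at 0 in 2 resistant libraries and at 0.00502 FPKM in the other, and at 0.168 to 0.419 FPKM in sensitive libraries. It too was under the filter, and with no filter it was called lower, at -0.36 (limma adjusted p = 0.00854).

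Annotation places SEMA3C, SEMA3E, SEMA3A and SEMA3D in a row on 1 chromosome, with 3 coding genes between SEMA3C and SEMA3E and none between the next neighbours (GENCODE release 29). SEMA3C was the member of that row with the highest mean in resistant cells, 23.8 FPKM against 0.425, 0.0742 and 0.0313 FPKM for SEMA3E, SEMA3A and SEMA3D, whereas in sensitive cells the means of the 4 genes were 1.27, 0.637, 0.424 and 1.73 FPKM.

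The membrane-bound class 4 semaphorins divided. SEMA4G, a transmembrane member, stood at 1.80, 2.24 and 2.17 FPKM in resistant and 51.2, 51.6 and 45.8 FPKM in sensitive libraries. It was the most abundant semaphorin of the sensitive cells and fell with a log2 fold change of -4.04 (SE 0.117, limma adjusted p = 5.89e-07), a sensitive mean 23.9 times the resistant one. The mitochondrial ribosome gene MRPL43 overlaps SEMA4G on the other strand and was also lower, at 11.1, 11.3 and 11.3 FPKM in resistant and 41.6, 46.7 and 62.3 FPKM in sensitive libraries (log2 fold change -2.04, limma adjusted p = 3.58e-05). Whether counting used strand is not given in the sources used here, so reads of the 2 genes cannot be told apart.

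SEMA4B had 30.9, 33.3 and 32.3 FPKM in resistant against 14.0, 16.4 and 11.2 FPKM in sensitive libraries, all resistant values being higher, with a log2 fold change of 1.17 (SE 0.148, limma adjusted p = 4.10e-04). SEMA4C, a ligand of PLXNB2, was at 8.77, 8.12 and 8.78 FPKM in resistant and 6.34, 6.23 and 5.27 FPKM in sensitive libraries. It rose by 0.46 on the log2 scale (SE 0.119, limma adjusted p = 0.0119), a call that ended without resistant replicate 1 (adjusted p = 0.0535) and in the test against a 1.5-fold change (1.0). SEMA4D, known as CD100 on lymphocytes and the main ligand of PLXNB1, had 1.10, 1.07 and 1.48 FPKM in resistant and 0.268, 0.215 and 0.111 FPKM in sensitive libraries. Its log2 fold change was 0.88 (SE 0.102, limma adjusted p = 2.62e-04) and 2.17 with a pseudocount of 0.1. SEMA4F overlapped at 2.46, 2.88 and 2.85 FPKM in resistant and 2.47, 2.63 and 2.69 FPKM in sensitive libraries (log2 difference 0.05, 95% interval -0.20 to 0.30, limma adjusted p = 0.691). SEMA4A did not exceed 0.00689 FPKM in resistant or 0.0271 FPKM in sensitive libraries.

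Of the class 6 semaphorins, transmembrane ligands that bind plexin A receptors without a neuropilin, SEMA6A and SEMA6B fell. SEMA6A, a ligand of PLXNA2 and PLXNA4, was at 1.72, 2.28 and 1.71 FPKM in resistant and 24.3, 24.7 and 16.4 FPKM in sensitive libraries (log2 fold change -2.95, SE 0.188, limma adjusted p = 1.40e-05). Every resistant library lay below every sensitive one, and the sensitive mean was 11.4 times the resistant mean. SEMA6B followed, with 1.33, 1.93 and 2.24 FPKM in resistant and 10.99, 13.1 and 5.29 FPKM in sensitive libraries (log2 fold change -1.86, SE 0.312, limma adjusted p = 0.00162). Sensitive replicate 3 held the lowest sensitive value of both genes, as it did for 52.2% of all tested genes. SEMA6C was at 0.940, 0.897 and 0.827 FPKM in resistant and 1.15, 1.33 and 2.26 FPKM in sensitive libraries. Its log2 difference was -0.43 (SE 0.162, limma adjusted p = 0.0510), and without sensitive replicate 3 it was -0.25 and passed (limma adjusted p = 0.0251), as it did at -0.55 without sensitive replicate 1 (0.0251). SEMA6D was listed at 0 in all resistant libraries and at 0.0452, 0.0248 and 0.00257 FPKM in the sensitive ones.

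The remaining classes were close to absent or below the filter. SEMA5A, a class that carries thrombospondin repeats, reached 0.00631 FPKM in resistant and 0.00321 FPKM in sensitive libraries, and SEMA5B was listed at 0 in all 6. SEMA7A, anchored to the membrane by a lipid and a ligand of PLXNC1 and of integrins with a beta-1 chain, had 0.556, 0.560 and 0.530 FPKM in resistant and 0.867, 1.09 and 0.628 FPKM in sensitive libraries, with no resistant value above a sensitive one.

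Plexin A receptors serve class 3 ligands with a neuropilin and class 6 ligands directly. The 3 tested plexin A genes all rose, where 35.2% of all tested genes were higher. PLXNA1 was at 20.8, 20.4 and 20.4 FPKM in resistant and 6.37, 6.33 and 3.87 FPKM in sensitive libraries (log2 fold change 1.75, SE 0.181, limma adjusted p = 1.50e-04). PLXNA2 was at 14.3, 13.6 and 12.4 FPKM in resistant and 1.42, 1.42 and 1.44 FPKM in sensitive libraries (log2 fold change 2.57, SE 0.112, limma adjusted p = 2.56e-06). PLXNA3 was at 7.72, 8.19 and 7.24 FPKM in resistant and 1.05, 1.19 and 1.26 FPKM in sensitive libraries (log2 fold change 2.01, SE 0.110, limma adjusted p = 7.11e-06). No value of the 2 groups overlapped for these 3 genes, and the ratios of means were 3.72, 9.40 and 6.61. PLXNA4 was listed at 0 in 5 libraries and at 0.00627 FPKM in resistant replicate 2, and was not tested. LAGE3 overlaps PLXNA3 on the other strand and went the opposite way, at 17.9, 13.3 and 15.1 FPKM in resistant and 31.5, 39.0 and 60.9 FPKM in sensitive libraries (log2 fold change -1.40, limma adjusted p = 0.00201).

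Tested plexins of the other classes were lower or did not pass. PLXNB1, the SEMA4D receptor that couples to RhoA exchange factors, had 2.79, 3.14 and 2.97 FPKM in resistant and 9.89, 10.4 and 11.2 FPKM in sensitive libraries (log2 fold change -1.54, SE 0.114, limma adjusted p = 2.86e-05). PLXND1, known for its part in vessel patterning, had 4.92, 5.25 and 6.53 FPKM in resistant and 24.3, 24.8 and 16.5 FPKM in sensitive libraries (log2 fold change -1.78, SE 0.190, limma adjusted p = 1.69e-04). In both genes all resistant libraries lay below all sensitive ones. PLXNC1, the SEMA7A receptor, had 0.00698, 0.0301 and 0.00692 FPKM in resistant and 6.39, 5.73 and 1.33 FPKM in sensitive libraries (log2 fold change -2.26, SE 0.419, limma adjusted p = 0.00261). Sensitive replicate 3 was thus far below the other sensitive libraries, and without it the log2 fold change was -2.80. With a pseudocount of 0.1 in place of 1 it was -5.05.

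PLXNB2, a receptor for SEMA4C and the most abundant plexin in both groups, was at 39.7, 38.8 and 32.9 FPKM in resistant and 42.7, 45.7 and 51.4 FPKM in sensitive libraries. The groups did not overlap, but its log2 difference of -0.32 (SE 0.122, 95% interval -0.61 to -0.03) stood just outside the threshold (limma adjusted p = 0.0504) and passed without sensitive replicate 3 (-0.25, adjusted p = 0.0373) and without sensitive replicate 1 (-0.38, adjusted p = 0.0456). It also passed under quantile normalization (adjusted p = 0.0423) and with a pseudocount of 0.1 (0.0495). PLXNB3, under the filter, had 0.986, 0.735 and 0.682 FPKM in resistant libraries, against 0.0158 FPKM in sensitive replicate 2 and a listed 0 in the other sensitive libraries. With no filter PLXNB3 was called higher, at 0.84 (limma adjusted p = 2.83e-04).

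Neither neuropilin rose. NRP1, the co-receptor for SEMA3A and VEGF, was at 6.42, 6.21 and 6.42 FPKM in resistant and 12.9, 11.6 and 5.81 FPKM in sensitive libraries. The resistant values lay below sensitive replicates 1 and 2 and above replicate 3, and the log2 difference of -0.53 (SE 0.268, 95% interval -1.17 to 0.11) did not pass (limma adjusted p = 0.120). Without sensitive replicate 3 NRP1 passed as lower, at -0.85 (limma adjusted p = 3.99e-05). With all libraries it also passed under quantile normalization (-0.64, limma adjusted p = 0.0317). NRP2, which prefers SEMA3F and SEMA3C and also binds VEGFC, was under the filter, with 0.00155 FPKM in resistant replicate 1 and a listed 0 in the other resistant libraries, against 0.574, 0.463 and 0.639 FPKM in sensitive libraries. With no filter NRP2 was called lower, at -0.64 (limma adjusted p = 1.74e-04).

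**Figure D2:**
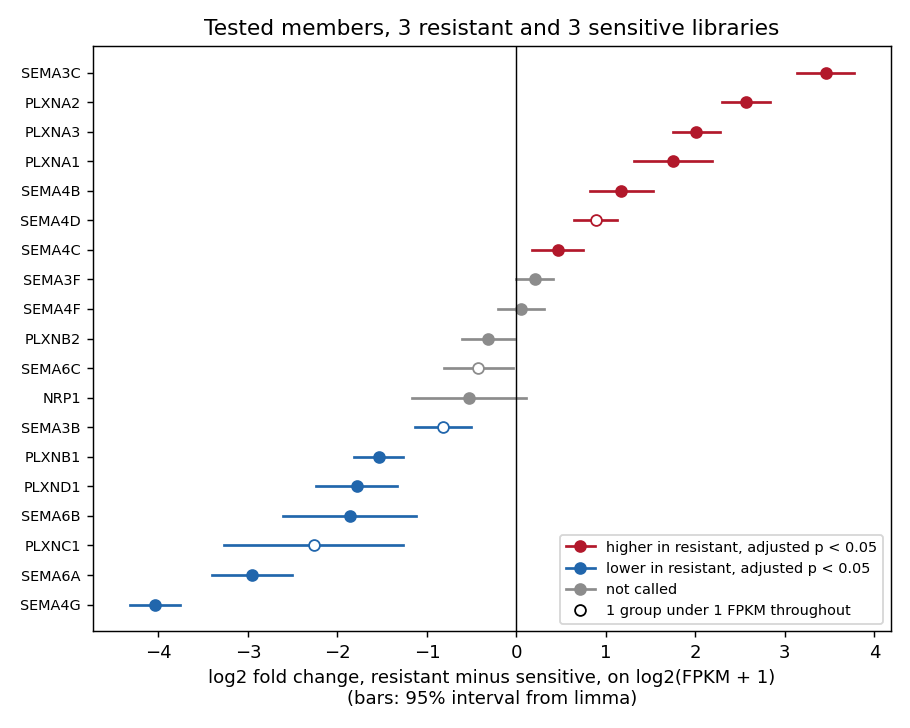
Log2 fold change of the 19 tested members, resistant minus sensitive on log2(FPKM + 1), with 95% intervals from limma that are not adjusted for the number of genes. SEMA3C at 3.46 and SEMA4G at -4.04 mark the ends; open circles are members under 1 FPKM in every library of 1 group.

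Sums over the family changed less than its make-up. All plexins summed to 91.2, 90.1 and 83.1 FPKM in resistant and 92.2, 95.7 and 87.0 FPKM in sensitive libraries, which overlapped. Plexin A genes made up 46.8 to 48.2% of that sum in resistant and 7.55 to 9.59% in sensitive libraries. PLXND1 held 5.39 to 7.86% in resistant and 18.9 to 26.4% in sensitive libraries, and PLXNB2 39.5 to 43.5% and 46.4 to 59.1% in the same order. Below PLXNB2, the order by mean level was PLXNA1, PLXNA2, PLXNA3, PLXND1 and PLXNB1 in resistant cells, with no overlap between neighbours. In sensitive cells it was PLXND1, PLXNB1, PLXNA1, PLXNC1, PLXNA2 and PLXNA3, where PLXNA1 and PLXNC1 overlapped, as did PLXNC1 and PLXNA2.

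Semaphorin transcripts summed to 74.8, 80.8 and 79.2 FPKM in resistant and 119.8, 125.2 and 95.01 FPKM in sensitive libraries, each resistant library lying below each sensitive one. The same held for FPKM summed over all genes, at 366048 to 377923 in resistant and 410492 to 475088 in sensitive libraries. These sums were not rescaled, and what part the library totals had in the semaphorin sums was not tested. SEMA4B and SEMA3C led in resistant cells with 40.8 to 41.3% and 29.7 to 31.1% of the sum, against 11.7 to 13.1% and 0.991 to 1.31% in sensitive cells. SEMA4G and SEMA6A led in sensitive cells; their shares were 2.41 to 2.77% and 2.16 to 2.82% in resistant and 41.2 to 48.2% and 17.2 to 20.3% in sensitive libraries. Taken by class, the secreted class 3 ligands held 33.2 to 34.1% in resistant and 5.73 to 6.80% in sensitive libraries, and class 6 held 5.33 to 6.31% and 25.2 to 31.2% in that order. Class 4 stayed the largest class in both, at 58.9 to 60.2% in resistant and 61.6 to 68.4% in sensitive libraries. In resistant cells SEMA4G, SEMA6A, SEMA6B and SEMA3F, ranks 5 to 8, overlapped from neighbour to neighbour. In sensitive cells SEMA6A, SEMA4B, SEMA6B and SEMA4C did so below SEMA4G.

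**Figure D3:**
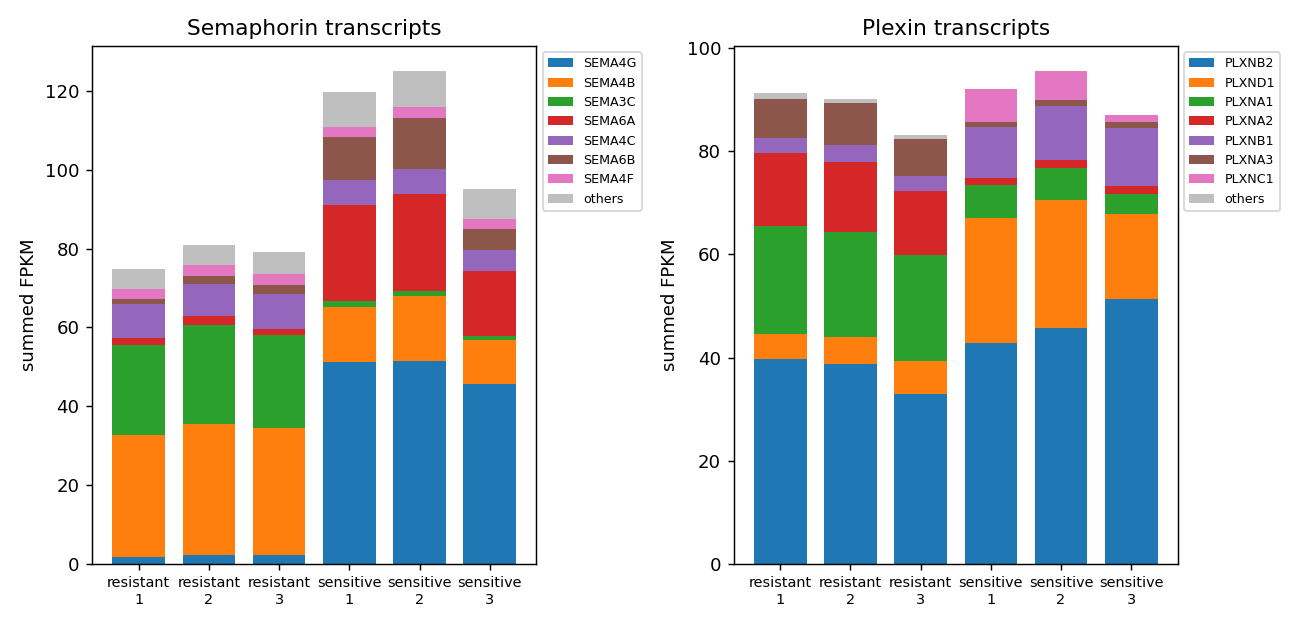
Summed FPKM of semaphorins (left) and plexins (right) in each library, resistant libraries left of sensitive ones, stacked by gene with the 7 highest named. Plexin sums lie between 83.1 and 95.7 FPKM in all 6 libraries while the plexin A share is 46.8 to 48.2% in resistant and 7.55 to 9.59% in sensitive libraries.

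Of 10 ligand and receptor pairs listed, 3 had both genes called, each in opposite directions, but the list was not complete: it held SEMA3C with NRP1 and PLXND1 and not with the plexin A genes. SEMA3C and PLXNA1, PLXNA2 and PLXNA3 were all higher, with log2 fold changes of 3.46, 1.75, 2.57 and 2.01. SEMA3C averaged 23.8 ± 1.21 FPKM in resistant and 1.27 ± 0.282 FPKM in sensitive cells, while its receptor subunit PLXND1 averaged 5.57 ± 0.850 and 21.9 ± 4.68 FPKM in the same order (± gives the SD over 3 libraries, also for the means that follow). SEMA6A averaged 1.90 ± 0.323 FPKM in resistant and 21.8 ± 4.68 FPKM in sensitive cells, and its receptor PLXNA2 averaged 13.4 ± 0.955 and 1.43 ± 0.0136 FPKM. SEMA4D averaged 1.22 ± 0.229 FPKM in resistant and 0.198 ± 0.0798 FPKM in sensitive cells, and PLXNB1 averaged 2.97 ± 0.178 and 10.5 ± 0.681 FPKM. In that pair SEMA4D passed the filter through the resistant group alone, which fixed its direction, so only the direction of PLXNB1 was open. SEMA4C was called higher while PLXNB2 did not pass, and for SEMA7A with PLXNC1 only the receptor was tested. Of the other pairs considered, SEMA3A and SEMA6D were at or under 0.0742 FPKM on average in resistant cells, in which their receptor PLXNA1 averaged 20.6 FPKM, and SEMA5A was near 0 beside PLXNB3.

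Of 15 listed partners of plexins and neuropilins on the cell surface in the files, 6 were tested and 5 were higher (83.3%), where 67.7% of all tested genes were called and 35.2% were higher. Their median log2 fold change was 2.16, against 0.08 over all tested genes. ERBB2 did not pass, at 14.2 ± 0.587 FPKM in resistant and 10.6 ± 2.66 FPKM in sensitive cells (limma adjusted p = 0.0885). ITGA1, an integrin chain under the filter, ran the other way at 0.297, 0.307 and 0.357 FPKM in resistant and 3.42, 2.46 and 0.973 FPKM in sensitive libraries, without overlap. The adhesion molecule L1CAM, a partner of NRP1 in the SEMA3A response of neurons, was at 62.8, 63.9 and 69.1 FPKM in resistant and at or below 0.0644 FPKM in sensitive libraries (log2 fold change 5.99). MST1R, the receptor of macrophage-stimulating protein, was at 26.5, 25.8 and 22.2 FPKM in resistant and at or below 0.0238 FPKM in sensitive libraries (4.66). MST1R, MET and ERBB2 are kinases known to associate with plexin B, of which the first pair rose and ERBB2 did not pass. MET averaged 74.0 ± 7.21 FPKM in resistant and 16.8 ± 7.84 FPKM in sensitive cells (2.19), while PLXNB1 was lower. PTK7, the relative of the fly plexin partner off-track, averaged 11.3 ± 0.867 FPKM in resistant and 1.86 ± 0.678 FPKM in sensitive cells (2.13). For L1CAM and MST1R only the resistant libraries reached 1 FPKM, which fixed the direction. The VEGF receptors KDR and FLT1, which share neuropilins with the plexins, were listed at 0 in all libraries.

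Cytoplasmic effectors leaned upward, with 19 of 32 tested genes higher, 5 lower and 8 not called, of 37 in the files. Among all tested genes 35.2% were higher and 32.5% lower. The share called in either direction, 75%, was near the 67.7% of all tested genes. The median log2 fold change was 0.51, against 0.08 over all tested genes. MICAL2, an actin-oxidizing enzyme of the family that plexin A engages, averaged 44.2 ± 2.77 FPKM in resistant and 0.697 ± 0.230 FPKM in sensitive cells (4.74). FYN, a Src-family kinase that acts below plexin A, averaged 15.9 ± 1.16 FPKM in resistant and 0.114 ± 0.0993 FPKM in sensitive cells (3.92). TIAM1, an exchange factor for Rac, averaged 0.0311 ± 0.0263 FPKM in resistant and 4.84 ± 1.08 FPKM in sensitive cells (-2.48). RND1, a GTPase that binds plexins to open their catalytic part, averaged 2.44 ± 0.310 FPKM in resistant and 19.6 ± 12.4 FPKM in sensitive cells (-2.43), where sensitive replicate 3 held 34.0 FPKM. MICAL2, FYN and TIAM1 passed the filter through 1 group alone.

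Among 8 proteases that cut semaphorins or belong to the furin family, 7 were tested, of which 2 were higher, 4 lower and 1 not called, where 35.2% of all tested genes were higher and 32.5% lower. The median log2 fold change was -0.41. FURIN, which cleaves class 3 semaphorins and so sets their activity, was at 17.8, 17.3 and 17.4 FPKM in resistant and 272, 298 and 373 FPKM in sensitive libraries (log2 fold change -4.08, SE 0.133, limma adjusted p = 8.22e-07). Its level was thus lower in the cells with more SEMA3C, with no overlap. MMP14 averaged 12.1 ± 2.07 FPKM in resistant and 0.722 ± 0.0620 FPKM in sensitive cells (2.92), and ADAMTS1 averaged 5.00 ± 1.33 and 0.00970 ± 0.00973 FPKM (2.55). PCSK6, another furin-like enzyme, averaged 0.00559 ± 0.00484 FPKM in resistant and 1.75 ± 0.330 FPKM in sensitive cells (-1.44). The last 3 passed the filter through 1 group alone.

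Slit, netrin and RGM ligands with their receptors, the other guidance families listed, gave 6 higher, 2 lower and 1 not called of 9 tested, with 22 of the 23 listed in the files, where 35.2% of all tested genes were higher and 32.5% lower. Their median log2 fold change was 1.65, against -0.32 for the semaphorin, plexin and neuropilin genes; no difference between the lists was tested, and 5 of the 9 passed the filter through 1 group alone. NTN4 averaged 21.9 ± 1.13 FPKM in resistant and 0.453 ± 0.0431 FPKM in sensitive cells (3.98), RGMB 10.8 ± 0.888 and 1.33 ± 0.113 FPKM (2.34) and ROBO3 6.49 ± 0.364 and 1.03 ± 0.224 FPKM (1.89). ROBO1, a slit receptor, averaged 3.87 ± 0.269 FPKM in resistant and 30.1 ± 10.4 FPKM in sensitive cells (-2.61).

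**Figure D4:**
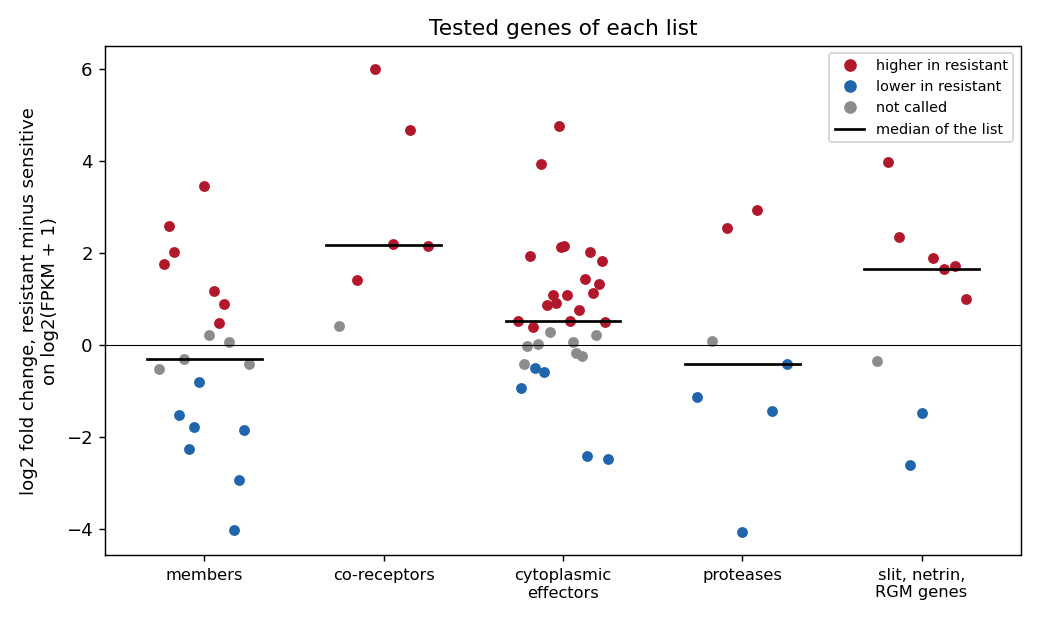
Log2 fold change of the tested genes of each list, resistant minus sensitive on log2(FPKM + 1), 1 point per gene, with the list's median as a bar. Members spread from -4.04 to 3.46 around a median of -0.32, and the 6 tested co-receptors lie at or above 0.41.

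The antisense rows left out of the family were low. SEMA6A-AS1 was at 0.423, 0.394 and 0.236 FPKM in resistant and 0.391, 0.361 and 0.293 FPKM in sensitive libraries, overlapping although SEMA6A itself fell. SEMA3F-AS1, SEMA3B-AS1, SEMA6A-AS2 and PLXNB3-AS1 did not exceed 0.318 FPKM in any library.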

How the data were processed

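The authors deposited 1 table per library with 1 FPKM value per gene symbol; the unit was inferred from the values, which would not set it apart from RPKM. Per the submitters' processing notes, cutadapt and HISAT2 were used. Not given in the sources used here were their versions, the counting program, genome build, annotation and strand setting. Read counts are not analysed here, so low values carry no counting interval. Groups came from the sample titles, 3 libraries each.

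Genes that reached 1 FPKM in 3 or more libraries were fitted with limma 3.58.1 (trend; R 4.3.3) on log2(FPKM + 1), resistant minus sensitive, with Benjamini-Hochberg adjustment over all 11694 tested genes and calls at an adjusted p under 0.05. Fold changes on this scale understate low genes. The fit was tested on simulated data in which 200 genes were changed. Since 7920 genes were called in the real data, the simulation does not cover a difference that wide. Members, lists and tests were chosen with earlier results of these data known. Full values are given for called members of at least 1 on the log2 scale and for uncalled members of at least 5 FPKM; lists name up to 4 called genes by size of change. RefSeq promoter windows (GRCh38.p14) matched 27 of 31 members by symbol. Tables and figures used Python 3.11.15, pandas 2.3.3, numpy 2.4.6 and matplotlib 3.10.9. Alternatives were a fit with replicate numbers as a block, 2 further scalings (quantile normalization and the geometric mean sample), no trend, other filters, 0.1 as pseudocount, each library left out, and testing for changes above 1.5-fold.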

Additional observations from a re-analysis of the deposited data

How the results depend on the processing

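Read counts were not analysed here, so what depth limits is unknown and genes near 0 are given as listed. Over the 19 tested members and 14 alternatives, 245 of 259 log2 fold changes kept their direction and their side of the threshold. No trend, other filters, the replicate block and the test against a 1.5-fold change leave the log2 fold change itself as it was. In those alternatives only the call could change, so the count says less about direction than its size implies. For 2 members (SEMA3B and SEMA4C) 4 values lost the call, for 3 (NRP1, PLXNB2 and SEMA6C) 9 gained it, and SEMA4F, which was not called, changed sign under quantile normalization (-0.0711). With no filter, 30 members were tested, of which 8 were higher and 11 lower. Deviations of same-numbered libraries from their group means correlated at -0.42, 0.07 and -0.23. Deviations within a group of 3 are not independent, so these values cannot settle whether the replicate number pairs the libraries. With the replicate block 6 members were higher (SEMA4C did not pass, adjusted p = 0.0527 in limma), 7 were lower and 7193 genes were called. A mean of at least 5 FPKM and a test against a 1.5-fold change called 4973 and 4357 of all genes. The test against a 1.5-fold change left 10 effectors higher and 2 lower and 2 proteases lower. A mean of at least 5 FPKM left 3 effectors lower, 1 protease higher, and 2 slit, netrin and RGM genes higher and 1 lower. With no filter 10 of those guidance genes were higher and 2 co-receptors lower. Leaving out each library in turn, 6 to 7 members were higher and 7 to 10 lower, and 2 to 4 proteases were lower, with 2 when sensitive replicate 2 or any 1 resistant library was left out; the causes were not tested. All genes called then ranged from 6675 to 9442, the highest without sensitive replicate 3.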
